A study of Homo sapiens with 2 samples.

Results

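DCLK1 and 8 other genes known as markers of stem-like or tumour-initiating epithelial cells (CD44, PROM1, ALDH1A1, SOX9, SOX2, BMI1, LRIG1 and CD24) were followed in gastric cancer cells after knockdown of SET7/9. All array probes carrying these gene names were taken, which gave 13 probes of 9 genes among the 34127 gene probes and 25940 gene names of the array. The genes were selected on the knockdown ratios of these same arrays, since DCLK1 had the highest ratio in MKN74 among probes measured in both channels. Their ratios, and the levels behind them, are therefore given as a description with no test.

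MKN74 and MKN45, which are established gastric cancer cell lines, were electroporated with SET7/9 siRNA or with negative control siRNA at 50 nM, and total RNA was taken after 48 hrs. Each line was hybridised to 1 two-colour Agilent array, with SET7/9 siRNA in Cy5 (red) and negative control siRNA in Cy3 (green) on both, so that the dyes were not swapped. Every culture, controls included, had thus been electroporated with an siRNA, and no untransfected culture was analysed here. The sources do not say which of the SET7/9 siRNAs was hybridised, and a line or a dye cannot be told apart from the single array that carried it.

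SET7/9 is a lysine methyltransferase that places a single methyl group on lysine 4 of histone H3 and also methylates other proteins. DCLK1 is a kinase with doublecortin domains that bind microtubules. It is known from developing neurons, and in the stomach and intestine it marks tuft cells and has been studied as a marker of slowly dividing or tumour-initiating cells. The other genes belong to the same literature: CD44 and CD24 are surface glycoproteins, PROM1 (CD133) is a membrane protein of cell protrusions, ALDH1A1 oxidises retinal to retinoic acid, SOX9 and SOX2 are transcription factors, BMI1 is a Polycomb subunit, and LRIG1 restrains growth factor receptors of the ErbB family.

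Signals are the processed intensity of spots, after background subtraction and dye normalization by the scanner software, in arbitrary units. A channel counts as measured where the software marked it as well above background on at least 50% of the spots of a probe. The ratio is log2 of Cy5 over Cy3, so that positive values are higher with SET7/9 siRNA. Its error is that of the software's model of the spot, not an SD over cultures. The combined error of 2 ratios is the root of the sum of their squared errors. It holds no spread over cultures or arrays either, so that a larger difference is not a test. The change called was 1.5-fold, or 0.58 on the log2 scale. Dim signals were replaced by small surrogate values in the software, so that a ratio of 2 unmeasured channels carries no information.

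The knockdown was seen at 1 of the 2 SETD7 probes (SETD7 encodes SET7/9), where the log2 ratios of MKN74 and MKN45 were -2.03 and -1.95, each with an error of 0.28. With another background correction (normexp, followed by loess within the array) these were -1.36 and -0.99. The other SETD7 probe was at 0.24 (error 0.22) and -0.23 (error 0.21). Over probes measured in both channels and printed repeatedly, the pooled SD of the ratio between spots was 0.087 in MKN74 and 0.0987 in MKN45. The epithelial markers EPCAM, CDH1, KRT8, KRT18 and KRT19 were measured in Cy3 at 8 of 8 probes in both lines. Of 6 fibroblast and smooth muscle markers 3 genes were measured in MKN74 and 4 in MKN45, of 3 endothelial markers 1 and 2, of 4 leukocyte markers 2 and 3, and of 4 neuronal markers 3 and 1. In that order, their MKN74 signals were 42.2 to 183, 33.8, 284 to 643 and 56.2 to 4928, and epithelial ones 915 to 138732. In MKN45 they were 17.8 to 224, 20.0 to 25.2, 28.3 to 896 and 33.7, and epithelial ones 724 to 135233. Of all probes, 51.0% were measured in Cy3 in both lines, 3.62% in MKN74 only and 8.69% in MKN45 only. No cell type is read from these counts.

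DCLK1 was read by 3 probes on chromosome 13 of GRCh37, on the minus strand. The probe measured in both channels lay at chr13:36345508-36345567, and a second probe lay 2.24 kb further toward the 3′ end of the gene, at chr13:36343269-36343328. The array design lists 3 RefSeq transcripts for each of these. The third probe, at chr13:36686007-36686066, lay 340 kb upstream and lists 1 of the 3 transcripts. In RefSeq on GRCh38.p14, DCLK1 is 363 kb long and has 3 start windows, at 363, 363 and 87.0 kb from its 3′ end. The 5′ probe is therefore printed beside the 250 bases before the internal start, which has a GC content of 50.8% and lies at chr13:35855668-35855917 of GRCh38.p14 on the minus strand. These positions are on another build than the probes. No annotation of GRCh37 was used here, so that exon, intron and UTR were not assigned to any probe. All sequences are in lower case, with no part marked.

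DCLK1 5′ probe: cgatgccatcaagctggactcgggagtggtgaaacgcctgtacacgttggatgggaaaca
DCLK1 internal start, 250 bases upstream: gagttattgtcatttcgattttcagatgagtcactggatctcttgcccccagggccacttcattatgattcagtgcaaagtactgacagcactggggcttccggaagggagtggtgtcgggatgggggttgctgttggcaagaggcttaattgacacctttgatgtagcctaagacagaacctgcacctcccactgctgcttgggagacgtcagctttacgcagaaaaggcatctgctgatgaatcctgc

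Probes of 3 further genes are shown. The ALDH1A1 3′ probe was measured in MKN45 only, and the upstream probe in both lines. The PROM1 probe was not measured at all, and the BMI1 probe differed in ratio from the other BMI1 probe in MKN45. ALDH1A1 was read on the minus strand of chromosome 9, at chr9:75516136-75516195 toward the 3′ end and at chr9:75540401-75540460 upstream of it. The PROM1 probe lay at chr4:15982046-15982105 on the minus strand. The BMI1 probe shown matched chr10:22617587-22617995 on the plus strand, a stretch longer than the 60 bases of the probe.

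ALDH1A1 3′ probe: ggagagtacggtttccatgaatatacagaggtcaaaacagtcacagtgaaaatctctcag
ALDH1A1 upstream probe: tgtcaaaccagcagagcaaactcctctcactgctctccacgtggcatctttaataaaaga
PROM1 probe: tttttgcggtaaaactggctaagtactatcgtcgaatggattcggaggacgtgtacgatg
BMI1 split probe: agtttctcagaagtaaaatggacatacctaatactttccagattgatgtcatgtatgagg

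In MKN74, the DCLK1 probe measured in both channels had a signal of 881 with negative control siRNA and 2835 with SET7/9 siRNA. The log2 ratio was 1.69 (error 0.26), or 3.22-fold higher with SET7/9 siRNA. This was the highest ratio of the 18582 probes measured in both channels, which is the reason DCLK1 was chosen. The probes next in order were of COL13A1 at 1.53, IL8 at 1.40, STEAP1 at 1.36 and KRTAP3-1 at 1.19. Among the 20674 probes with at least 1 channel measured, 49 had a higher ratio than this DCLK1 probe. As DCLK1 was chosen for the highest ratio, its place above the other probes in the plot of ratio against signal is not a result.

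The second DCLK1 probe had a signal of 6.67 in Cy3, which was not well above background, and 27.9 in Cy5, which was. Its log2 ratio of 2.07 (error 0.49) thus rests on a dim control channel. With that channel raised to the lowest signal well above background on the array, the probe was at least 1.62-fold higher with SET7/9 siRNA. That bound holds for the scanner's processed values, since the log2 ratio was 0.34 with normexp and loess, short of 1.5-fold. Both 3′ probes of DCLK1 were on the same side of 0, but their levels cannot be compared because each probe binds differently. At the 5′ probe the signals were 3.88 in Cy3 and 2.50 in Cy5, and neither was well above background.

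In MKN45 no DCLK1 probe was measured in either channel. The probe with the high ratio in MKN74 had signals of 3.48 with negative control siRNA and 2.09 with SET7/9 siRNA there, the second probe 3.14 and 1.93, and the 5′ probe 3.77 and 2.34. No ratio of DCLK1 can thus be given for MKN45. After scaling between the arrays (Aquantile, which gives the arrays the same distribution of mean signal), the first probe was at least 66.4-fold higher in MKN74 than in MKN45 in the control RNA. In the knockdown RNA the bound was 382-fold. At the second probe the Cy5 level was at least 5.31-fold higher in MKN74. These bounds between the lines, and those given below, rest on the scanner's background correction. No other correction is given for them.

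**Figure D1:**
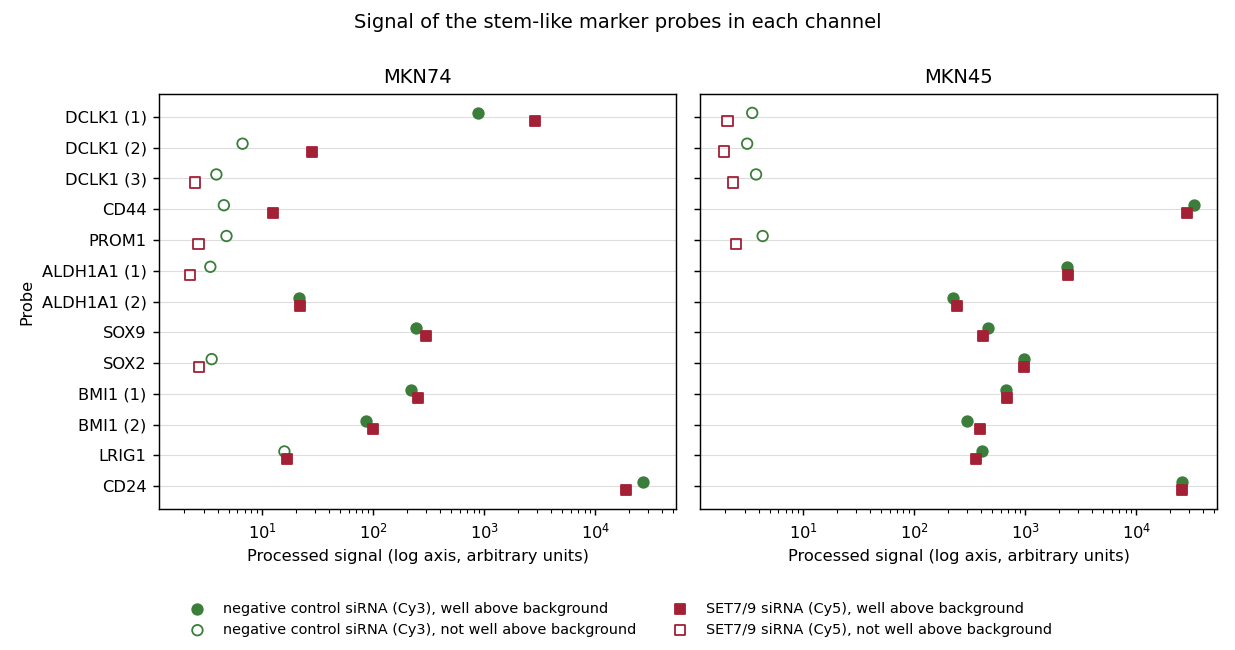
Processed signal (log axis, arbitrary units) of the 13 probes in MKN74 (left) and MKN45 (right), with negative control siRNA as circles and SET7/9 siRNA as squares. Filled symbols are well above background and open symbols are not; a number in brackets tells probes of 1 gene apart, in the order DCLK1 both-channel, second 3′ and 5′ probe, ALDH1A1 3′ and upstream probe, and BMI1 unsplit and split probe. The first DCLK1 probe moves from 881 to 2835 in MKN74 and is near background in MKN45, where CD44, the ALDH1A1 3′ probe and SOX2 are bright.

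Among the surface markers, CD44, the receptor of the matrix polysaccharide hyaluronan, was bright in MKN45 and near background in MKN74. Its probe on chromosome 11 (chr11:35253812-35253871, plus strand) had signals of 32912 with negative control siRNA and 28313 with SET7/9 siRNA in MKN45, a log2 ratio of -0.22 (error 0.20). In MKN74 the signals were 4.53 and 12.6, of which only Cy5 was well above background. The log2 ratio of 1.47 (error 0.84) in MKN74 passed the 1.5-fold line, yet no fold above 1 could be given once the dim channel was raised to the lowest measured signal. With normexp and loess the value was -0.02. In the control RNA, CD44 was at least 1483-fold higher in MKN45 than in MKN74.

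CD24, a surface glycoprotein held by a lipid anchor, was bright in both lines. The array design places its probe at chrY:21152667-21152726 (minus strand), whereas RefSeq lists CD24 on chromosome 6, and near-identical copies cannot be told apart by this probe. In MKN74 its signal was 26683 with negative control siRNA and 18882 with SET7/9 siRNA, a log2 ratio of -0.50 (error 0.21), or 1.41-fold lower. In MKN45 the signals were 25638 and 25538, with a ratio of -0.0056 (error 0.20). CD24 had the lowest ratio of the members in MKN74, short of the 1.5-fold line. The ratios of the lines differed by 0.49 on the log2 scale, more than their combined error of 0.29, and the control levels by -0.02 (MKN45 minus MKN74).

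PROM1 (CD133) was not measured in any channel. Its signals were 4.78 and 2.67 in MKN74 and 4.32 and 2.48 in MKN45, each pair with negative control siRNA first. A change in PROM1 was not detectable on these arrays at this signal over background.

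ALDH1A1, the enzyme behind the aldehyde dehydrogenase activity used to sort stem-like cells, was higher in MKN45 than in MKN74 at both probes. At the 3′ probe the signals were 3.42 and 2.24 in MKN74, both near background, and 2379 and 2440 in MKN45, where the log2 ratio was 0.04 (error 0.20). Its control level was thus at least 121-fold higher in MKN45. The upstream probe was measured in both channels of both lines, with signals of 21.4 and 21.9 in MKN74 and 224 and 244 in MKN45. The ratio was 0.03 (error 0.34) in the former line and 0.12 (error 0.21) in the latter, and the control level was higher in MKN45 by 3.103 on the log2 scale, or by 1.87 with normexp, loess and Aquantile. Both probes of ALDH1A1 thus had a ratio within its error of 0 wherever they were measured.

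SOX9, a transcription factor of progenitor cells in gut and other epithelia, was measured in both lines at chr17:70121841-70121900 (plus strand). Its signals were 243 with negative control siRNA and 297 with SET7/9 siRNA in MKN74, and 464 and 418 in MKN45. The log2 ratio was 0.29 (error 0.21) in MKN74 and -0.15 (error 0.20) in MKN45, both inside the 1.5-fold lines. The ratios lay on opposite sides of 0 and differed by 0.44, against a combined error of 0.29. The control level of SOX9 was 1.05 higher in MKN45 on the log2 scale.

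SOX2, which maintains pluripotent cells and is found in the foregut and stomach, was measured only in MKN45. At chr3:181431877-181431936 (plus strand) its signals were 972 and 972 there, a log2 ratio of -0.0003 (error 0.20). In MKN74 the signals were 3.52 and 2.70, neither well above background. SOX2 was thus at least 48.5-fold higher in the control RNA of MKN45.

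BMI1, the Polycomb ring-finger protein that works with RING1 and RNF2 in ubiquitination of histone H2A, was measured at both of its probes in both lines. At chr10:22619577-22619636 the signals were 217 and 253 in MKN74 and 665 and 684 in MKN45, with a ratio of 0.22 (error 0.21) in the former and 0.04 (error 0.20) in the latter. At the split probe they were 86.5 and 98.9 in MKN74 and 296 and 388 in MKN45, with a ratio of 0.19 in the former and 0.39 in the latter, each with an error of 0.21. The probes lay 0.03 apart in MKN74 and 0.35 apart in MKN45, where this was more than their combined error of 0.29, although the sign was the same. The control level of BMI1 was higher in MKN45 by 1.76 and 1.73 on the log2 scale at the respective probes.

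LRIG1, a membrane protein that lowers ErbB receptor levels, was printed on 10 spots per array at chr3:66429597-66429656 (minus strand). In MKN74 its mean signals were 15.9 and 16.6. Cy3 was well above background on 4 of 10 spots and Cy5 on 10 of 10, so that the ratio of 0.06 (error 0.46) rests on 1 measured channel. The ratios of the single spots there ran from -0.56 to 1.28, with an SD of 0.53. In MKN45 the signals were 409 and 359 over 9 spots without an outlier mark. All 9 spot ratios were below 0, from -0.30 to -0.10, with a mean of -0.19 (error 0.21) and an SD between spots of 0.066. LRIG1 was at least 19.7-fold higher in the control RNA of MKN45.

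**Figure D2:**
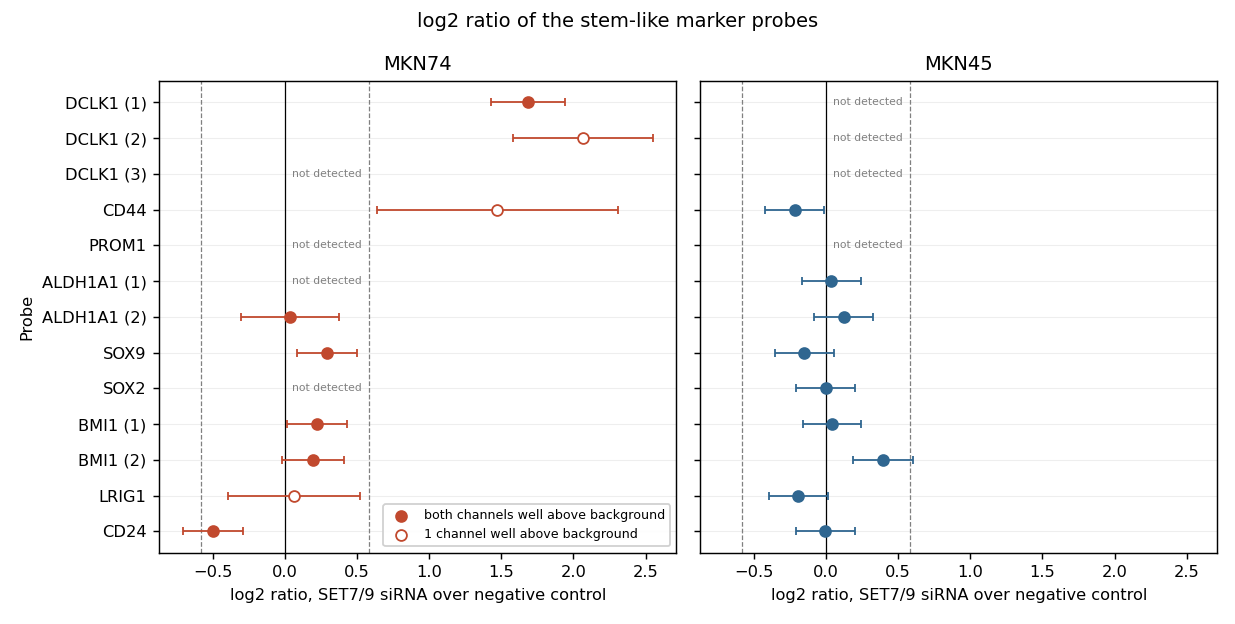
Log2 ratio of SET7/9 siRNA over negative control siRNA for the 13 probes in MKN74 (left) and MKN45 (right), with bars for the error of the software's spot model and dashed lines at 1.5-fold. Filled points have both channels well above background, open points 1 channel. The DCLK1 points at 1.69 and 2.07 and CD44 at 1.47 lie past the line in MKN74, and no point does in MKN45.

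Counted together, 9 of the 13 probes (7 of 9 genes) were measured in at least 1 channel in MKN74, beside 60.6% of all 34127 probes. In both channels 6 probes (5 genes) were measured, as were 18582 of all probes. Of the 9, 3 probes were at least 1.5-fold higher, beside 3.78% of all 20674 probes kept in the same way, and 0 were lower, beside 1.76%. Of the 6 measured in both channels, only the DCLK1 probe was past the line upward, beside 0.64% of all probes, and 0 were past it downward, beside 1.45%. As the members were chosen by these ratios, nothing is read from their counts. The median ratio was 0.22 over the 9 probes and 0.21 over the 6, against 0.0056 and -0.0066 over all probes of the same kinds. The first of these was 0.098 with normexp and loess and 0.063 over all 13 probes without a filter.

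In MKN45, 9 of the 13 probes (7 genes) were measured, beside 66.9% of all 34127 probes. All 9 were measured in both channels, as were 20281 of all probes, and their ratios ran from -0.22 to 0.39. None was past 1.5-fold in either direction. Of all probes with at least 1 channel measured, 4.81% were higher and 1.97% lower, and with both channels the shares were 0.814% and 1.62%. Read against these shares, 0 of 9 is not a result about the members. The median of the members was -0.0003, against 0.014 over all kept probes.

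**Figure D3:**
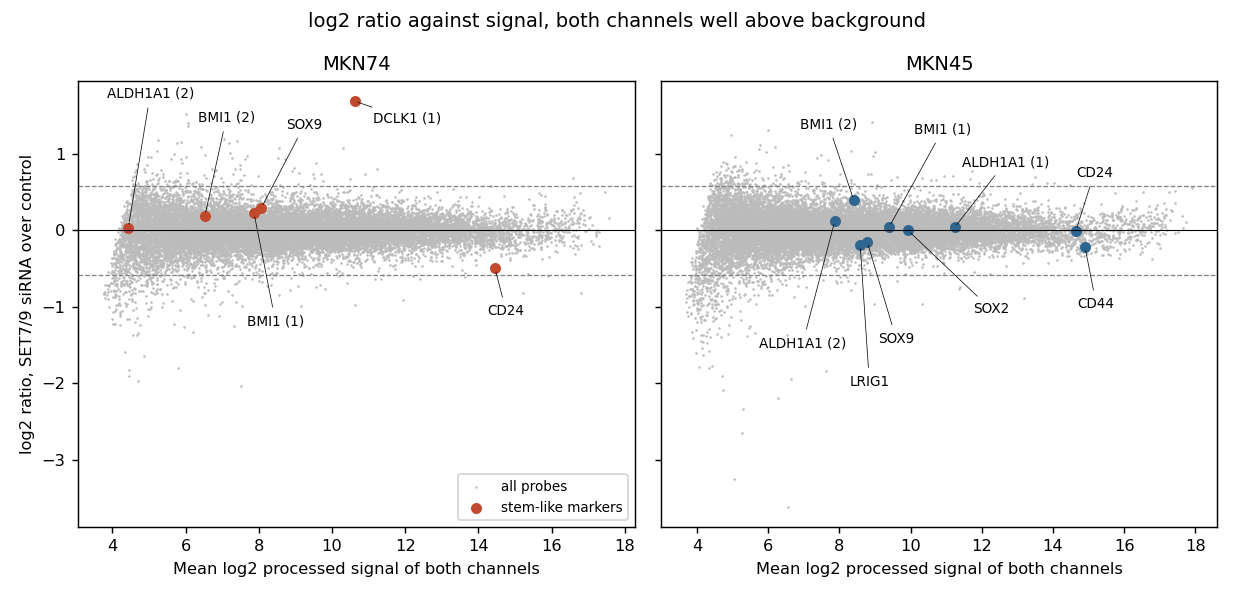
Log2 ratio (SET7/9 siRNA over negative control siRNA) against the mean log2 processed signal of both channels for all probes measured in both channels (grey) and for the stem-like markers (coloured), in MKN74 (left) and MKN45 (right). Dashed lines mark 1.5-fold; DCLK1 lies at 1.69 in MKN74, above all grey points, and every marker in MKN45 lies between the lines.

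There were 5 probes of 4 genes (ALDH1A1, SOX9, BMI1 and CD24) measured in both channels of both arrays. Of these, 3 probes, of ALDH1A1 and BMI1, had ratios that differed between the lines by less than their combined error. SOX9 and CD24 differed by more than it, in opposite directions. The difference between lines has 1 array on each side and was not tested. The share of all probes that differed by more than their combined error was not counted, so that nothing is read from these counts.

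The lines differed in the control level of most members. With negative control siRNA, 4 probes (CD44, the ALDH1A1 3′ probe, SOX2 and LRIG1) were measured in MKN45 and not in MKN74, as were 8.69% of all gene probes. In the other direction stood 1 probe, of DCLK1, beside 3.62% of all probes. Of the 5 probes measured in both lines, beside 51.0% of all probes, 4 were at least 1.5-fold higher in MKN45, a change seen in 23.2% of the 17414 probes measured in both. None of the 5 was at least 1.5-fold lower in MKN45, against 33.3% of all. The median difference of these 5 was 1.73 on the log2 scale, with a range from -0.02 (CD24) to 3.103 (ALDH1A1), against a median of -0.15 and quartiles of -0.86 and 0.52 over all. These levels were known when the members were chosen.

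**Figure D4:**
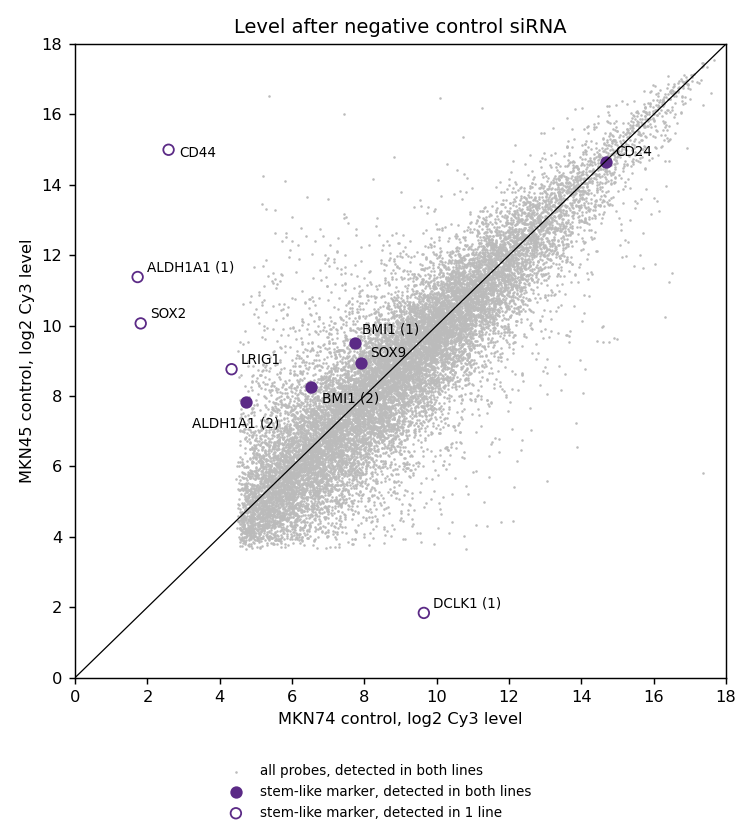
Log2 Cy3 level after scaling between arrays (Aquantile) in MKN74 (horizontal axis) and MKN45 (vertical axis) with negative control siRNA, with the diagonal as a line. Grey points are all probes measured in both lines, and filled points are members measured in both. Open points are members measured in 1 line, whose value in the other line was dim. DCLK1 lies far below the diagonal, CD44, ALDH1A1, SOX2 and LRIG1 lie above it, and CD24 lies on it.

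The 5 probes of other genes with the pattern most like that of the DCLK1 probe, over the log2 levels of the 4 channels, were looked for among the 650 probes of other genes that were, like it, measured in both channels of MKN74 and in neither of MKN45. Closest were TUBB2B, a beta-tubulin (distance 0.946), PLAT, the tissue plasminogen activator (0.970), LIMCH1, an actomyosin regulator (1.09), KRT83, a hair keratin (1.13), and CALD1, the actin-binding protein caldesmon (1.13). Their log2 ratios in MKN74 were 0.38, 0.45, 0.30, 0.11 and 0.08, all short of 1.5-fold. DCLK1 stood at 1.69, but it was chosen as the highest ratio, so that nothing is read from this gap. The likeness in level between the lines was required of all 650 probes and is not a result either. Over these 650 probes, which leave DCLK1 itself out, the median ratio in MKN74 was -0.09, the range was from -1.25 to 1.53, and 16 of them (2.46%) were at least 1.5-fold higher. Of 4 neuronal markers with 5 probes, 3 probes were measured with negative control siRNA in MKN74, with signals from 56.2 to 4928, and 1 in MKN45, at 33.7. Their part in the level of DCLK1 was not tested.

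Other genes of the same fields were taken from 4 lists with 59 genes and 79 probes in all: tuft cell genes, gastrointestinal stem cell genes, tumour-initiating cell and pluripotency genes, and paralogs and partners of the members. In MKN74, 36 of these probes were measured in both channels, with a median ratio of -0.02. None was at least 1.5-fold higher, beside 0.64% of all probes, and 1 was lower, beside 1.45%. The lower one was of ASCL2, a transcription factor of intestinal stem cells, with signals of 583 and 379 and a log2 ratio of -0.62 (error 0.21), or -0.42 and short of the line with normexp and loess. In MKN45, where 49 were measured in both channels with a median of 0.0038, ASCL2 was at -0.04 with signals of 2746 and 2667. There 1 probe was higher, beside 0.814% of all probes, and 2 were lower, beside 1.62%. At these small counts nothing is read from the shares. By list, the medians in MKN74 and MKN45 were 0.07 and 0.16 for tuft cell genes, 0.02 and 0.05 for gastrointestinal stem cell genes, -0.07 and 0.04 for tumour-initiating cell and pluripotency genes, and -0.06 and -0.05 for paralogs and partners. Over all probes measured in both channels they were -0.0066 and -0.0011.

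The higher probe in MKN45 was of CXCR4, the receptor of the chemokine CXCL12, with signals of 36.3 and 55.4 and a ratio of 0.61 (error 0.26). The lower probes were of OLFM4, a secreted glycoprotein of intestinal stem cells, at -1.04 (error 0.32) with signals of 36.6 and 17.8, and of the ephrin receptor EPHB2 at -0.84 (error 0.27) with signals of 48.2 and 27.0. All of these signals were low, though well above background. With normexp and loess all 3 probes were short of the line, with CXCR4 at 0.27, OLFM4 at -0.30 and EPHB2 at -0.32. The other EPHB2 probes in MKN45 were at -0.22 and -0.44, and in MKN74 the same gene was at -0.51, -0.004 and 0.06.

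Tuft cell genes, which share DCLK1 as a marker in the gut, were mostly not measured in both channels. Of their 15 probes (12 genes), 2 were measured in both channels in MKN74 and 5 in MKN45, beside 18582 and 20281 of all 34127 probes. With at least 1 channel the counts were 3 and 9, beside 60.6% and 66.9% of all probes. Of the tuft cell probes measured in both channels, 0 passed 1.5-fold in either line. With so few probes and the shares over all probes given above, these counts are not a result about the list. The tuft cell regulator POU2F3 was not measured in any channel, with signals between 2.12 and 4.59. With 1 channel measured, 1 tuft cell probe was past the line in MKN45, AVIL, encoding the actin regulator advillin, with signals of 5.67 in Cy3 and 12.1 in Cy5, and no fold above 1 could be given for it.

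The list of paralogs and partners held 27 probes of 21 genes, of which 16 probes in MKN74 and 19 in MKN45 were measured in both channels, with 0 past 1.5-fold, from which nothing is read at the same shares. Of the DCLK1 paralogs, DCLK2 was measured in 1 channel of MKN45 only, at signals of 7.79 and 8.89. A probe of DCLK3 was measured in Cy3 alone in both lines, at 20.5 in MKN74 and 20.1 in MKN45, while Cy5 was at 5.45 and 6.93. On the processed values scaled between the arrays (Aquantile) it was thus at least 2.08-fold and at least 2.24-fold lower with SET7/9 siRNA. With normexp and loess its log2 ratios were -0.29 and -0.30, short of these bounds and of 1.5-fold. Bounds of this kind are open to dye bias, as no array had the dyes swapped.

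**Figure D5:**
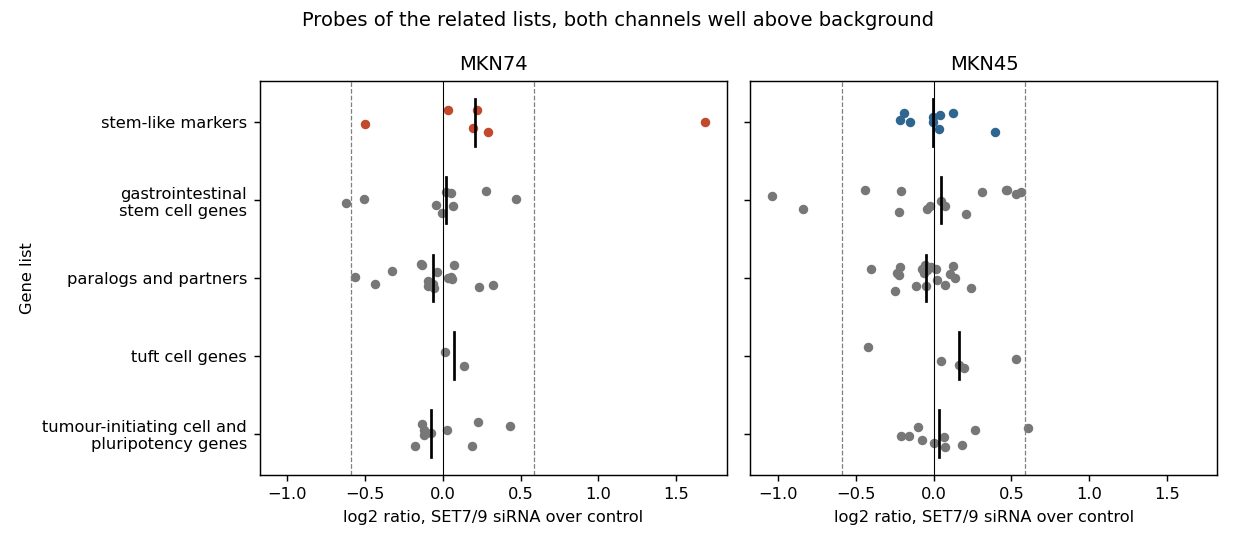
Log2 ratio (SET7/9 siRNA over negative control siRNA) of each probe measured in both channels, for the stem-like markers (coloured) and the 4 related lists (grey), in MKN74 (left) and MKN45 (right). Black bars are medians and dashed lines mark 1.5-fold; DCLK1 at 1.69 is the only probe past the upper line in MKN74, and CXCR4 at 0.61 the only one in MKN45.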

How the data were processed

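The authors deposited Agilent Feature Extraction 10.7.3.1 output, per the file headers with spot intensity on a linear scale, background subtracted, detrended and dye normalized (linear and LOWESS), and each spot's log10 ratio (Cy5 to Cy3) with an error. The authors also deposited log2 ratios, given to 2 decimals, as a table. Probe positions are on GRCh37. Log10 ratios were rescaled to log2. Spots with an outlier flag were left out (549 in MKN74, 534 in MKN45) and the others averaged per probe. Kept probes had 1 or both channels well above background on 50% or more of these spots. Levels were scaled between arrays by Aquantile in limma 3.58.1 (R 4.3.3). For a bound, a dim channel was raised to the lowest level well above background where it lay under it. With 1 array per cell line no test was run, and the number of arrays limits the precision.

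Members and lists were chosen with earlier results of these data known. Named are all members, SETD7, genes of the lists past 1.5-fold (with those measured in 1 channel that the text singles out) and the 5 probes closest to DCLK1 by Euclidean distance over 4 centred log2 levels. EPHB2 beyond its passing probe, POU2F3, DCLK2, DCLK3, AVIL and the next largest ratios were named after their values were seen. All 9 members matched the RefSeq gene table of GRCh38.p14 by symbol. Alternatives covered background correction (normexp, offset 50), centring, source, filters, cutoff and scaling. The counting was tested on simulated data. Python 3.11.15 was used.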

Additional observations from a re-analysis of the deposited data

Results flagged for a closer look

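Among the 7 member probes kept on both arrays, 3 had ratios on opposite sides of 0 in MKN74 and MKN45. This was not tested, since each line had 1 array. Of all kept probes, 51.2% were above 0 in MKN74 and 52.9% in MKN45. The share of all probes on opposite sides of 0 was not counted, so that nothing is read from the 3. CD44 was at 1.47 in MKN74 and -0.22 in MKN45, a difference of -1.69 on the log2 scale (MKN45 minus MKN74), with a dim control channel in MKN74, where it was at -0.02 with normexp and loess. SOX9 was at 0.29 and -0.15, a difference of -0.44. LRIG1 was at 0.06 and -0.19, a difference of -0.25, which is within its combined error of 0.50. The MKN74 value of LRIG1 was -0.33 in the deposited table and -0.01 with normexp and loess, on the same side of 0 as in MKN45.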

How the results depend on the processing

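The log2 ratio of 1.69 at the DCLK1 probe measured in both channels was also 1.69 with normexp and loess. The other settings could hardly move it and are no further support. The probe had 1 spot, without an outlier mark, and the deposited table gives 1.69 to 2 decimals. Median centring took off 0.0056, which left 1.68. The count of member probes at least 1.5-fold changed in MKN74 was 3, and fell to 1 with normexp and loess, 1 in the deposited table, and 1 with both channels required, each time with DCLK1 alone past the line. It was 3 with median centring, outlier spots, no filter or a 2-fold cutoff. The median ratio of the members in MKN74 was 0.22, and 0.098 with normexp and loess and 0.063 with no filter. In MKN45 the count was 0 under every alternative run. With normexp and loess the second DCLK1 probe was at 0.34 in MKN74 and CD44 was at -0.0197, on the other side of 0; both had a dim Cy3 channel, and the cause was not tested. The median control difference of the members was 1.73, and 1.28 with normexp, loess and Aquantile. It was 1.80 with the 75th percentile and 1.62 without scaling. Over all probes measured in both controls, 41.1% of the changes past 1.5-fold were higher in MKN45, 49.8% with the 75th percentile, 43.2% with normexp, loess and Aquantile, and 39.6% without scaling. Of 4 genes and lines with several kept probes, the signs were the same in 4, and in 3 with normexp and loess, where ALDH1A1 in MKN45 split around 0. No alternative gave a DCLK1 ratio in MKN45, where no channel was measured. Signals near background limit DCLK1, CD44, PROM1, ALDH1A1, SOX2 and LRIG1 in the lines where they were dim, and 1 array per line limits every value.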
